A study of Mus musculus with 6 samples.

Results

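Pancreatic islets of βRapKO mice given Dnmt3a were compared with wild-type islets, gene by gene, in 4 of the 6 RNA sequencing libraries of the study. All libraries came from islets of C57BL/6 mice aged 8 weeks. The wild-type group (WT) has 2 libraries, and its deposited columns carry GFP in their names, which the labels do not explain. The KO+DNMT3A group has 2 libraries of the genotype Beta RapKO with Dnmt3a expression, written βRapKO+LvDnmt3a in the design text. The 2 libraries of βRapKO islets without added Dnmt3a (KO), also with GFP in their column names, are given beside the results as values, and enter the filter and the limma fit only in alternatives. The labels name neither the Cre driver of the deletion, nor the number of animals behind a library, nor how and when Dnmt3a was given. Of 34745 genes listed, 12317 were at 1 FPKM (fragments per kilobase of transcript, scaled to the size of the library) or more in at least 2 of the 4 libraries and were kept. The comparison asks how far the islet transcripts of knockout mice with added Dnmt3a stand from those of wild-type mice.

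Raptor, encoded by Rptor, is the scaffold subunit of the kinase complex mTORC1, which couples nutrient supply to protein synthesis and cell growth. Dnmt3a is a de novo DNA methyltransferase that silences genes as beta cells mature. Islets hold insulin-producing beta cells, alpha, delta and PP cells that make other hormones, and resident macrophages, endothelial and stromal cells, and preparations often carry some duct and acinar cells.

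The 4 libraries differed in depth and in composition. The steps between FPKM values imply a depth of 244791 fragments for WT replicate 1 and 973761 for WT replicate 2, against 1919985 and 1117672 for the KO+DNMT3A libraries. A single fragment on a transcript of 2 kb was therefore worth 2.043 FPKM in WT replicate 1, against 0.260 to 0.513 FPKM in the other 3. WT replicate 1 also stood apart in content: mature beta cell genes held 0.368% of its summed FPKM, against 31.3% in WT replicate 2 and 26.0% and 28.8% in KO+DNMT3A. Mitochondrially encoded genes held 44.8% of it, against 26.1% to 26.5% in the other 3. Over the genes kept, Pearson's r across genes was 0.706 within WT and 0.823 within KO+DNMT3A. It was 0.876 and 0.884 between WT replicate 2 and KO+DNMT3A replicates 1 and 2. WT replicate 2 was thus closer to each KO+DNMT3A library than to the other WT library. Results that rest on WT replicate 1 are given with and without it. Whether a group is made of separate animals is not stated, and the spread within it may be technical.

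No gene passed the test. The limma fit called 0 of 12317 genes at an adjusted p of 0.05 (0.0%, smallest adjusted p = 1), and 326 genes (2.65%) had an unadjusted p under 0.05, 249 of them higher and 77 lower in KO+DNMT3A. An exact two-sided permutation test of 2 against 2 libraries cannot go below p = 0.333. Genes are therefore described by whether the 2 groups overlap. Both KO+DNMT3A libraries lay above both WT libraries for 2333 genes (18.9%) and below both for 999 genes (8.11%). Of the genes kept, 431 passed the filter only through KO+DNMT3A, so that they had to be higher there, and 107 only through WT, so that they had to be lower. Of the other 11779 genes, 16.1% lay above both WT libraries and 7.57% below both. The nearest libraries of the 2 groups were at least 1 apart on the log2 scale of FPKM plus 1 for 237 genes higher (1.92%) and 56 lower (0.455%) in KO+DNMT3A. Part of this imbalance went with WT replicate 1: the median log2 difference of all genes was 0.22, and 0.01 without that library. With all libraries scaled to one median, the counts were 1784 higher and 1531 lower, and with quantile normalization 1672 and 1625. Of the 2333 genes higher, 927 (39.7%) were listed at 0 in WT replicate 1, and for 219 of those both KO+DNMT3A values exceeded what 3 fragments are worth in that library. All differences below are KO+DNMT3A minus WT on log2(FPKM + 1), with the standard error of the limma fit, and none passed.

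The rule for widest gaps named 15 genes in each direction. The leading higher gene was Orm1, which encodes the acute-phase plasma protein orosomucoid (ENSMUSG00000039196, chromosome 4, 63344560 to 63348163, GRCm38). It had a listed value of 0 in each WT library and in both KO libraries, and was 13.4 and 11.5 FPKM in KO+DNMT3A, where the first value corresponds to 20 fragments. In WT replicate 1, 3 fragments of Orm1 would be worth 15.8 FPKM, so a level like that of KO+DNMT3A could have been missed there. In WT replicate 2 they would be worth 3.98 FPKM, below both KO+DNMT3A values. Myl7, a myosin light chain gene, Vnn3, a vanin, and Hamp, which encodes the iron hormone hepcidin, were likewise listed at 0 in both WT libraries and were 5.08 to 7.58 FPKM in KO+DNMT3A. In KO, Myl7 was listed at 0 and at 8.69 FPKM, Vnn3 at 2.71 and 0 FPKM, and Hamp at 3.42 and 0 FPKM. Like Orm1, these genes passed the filter through KO+DNMT3A alone and had to be higher there. In WT replicate 1, 3 fragments would be worth 20.8 FPKM for Myl7 and 6.77 FPKM for Vnn3, above both KO+DNMT3A values. In WT replicate 2 they would be worth 5.22 and 1.70 FPKM, below both. For Hamp the level of 3 fragments in WT replicate 2, 7.51 FPKM, was above both KO+DNMT3A values, so its difference was not detectable at this depth.

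Among the other higher genes, Sftpd, the collectin surfactant protein D, was listed at 0 and at 1.55 FPKM in WT against 15.3 and 8.77 FPKM in KO+DNMT3A. Dyrk2, a protein kinase gene, was listed at 0 and at 0.96 FPKM in WT, against 6.09 and 12.1 FPKM. It passed the filter through KO+DNMT3A alone and had to be higher. The stress kinase gene Mapk13 was listed at 0 and at 1.61 FPKM, against 8.18 and 9.13 FPKM. All 3 were listed at 0 in WT replicate 1, as were Tmsb15b1, Fbxl15, Degs2, Tubgcp2 and Snrpf, whose KO+DNMT3A values ran from 5.26 to 24.9 FPKM. Snrpf encodes a core protein of the spliceosome, so a listed 0 there need not mean that the transcript was absent. Aldh1a3, a retinaldehyde dehydrogenase gene known as a marker of dedifferentiated beta cells, was 0.75 and 3.76 FPKM in WT against 15.3 and 11.6 FPKM in KO+DNMT3A, a difference of 2.31 (SE 0.66). In KO it was 20.7 and 2.11 FPKM, so the KO libraries spanned most of that range. In WT replicate 1 Aldh1a3 rests on 0.63 fragments, if the longest transcript is assumed. Its difference was 1.59 without that library. Nbr1, an autophagy receptor gene, had nearly equal WT libraries, 2.24 and 2.25 FPKM, against 8.70 and 7.43 FPKM (difference 1.48, SE 0.53), and was 7.56 and 5.62 FPKM in KO. Its value in WT replicate 1 rests on 2.62 fragments, if the longest transcript is assumed, so the closeness of the WT libraries is uncertain.

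The lower genes with the widest gaps included several of myeloid cells, described below. Angptl6, which encodes a secreted angiopoietin-like protein, was 56.9 and 41.6 FPKM in WT against 5.6 and 7.92 FPKM in KO+DNMT3A, a difference of -2.69 (SE 0.56). In KO it was 4.43 and 33.2 FPKM, so KO replicate 1 lay below both KO+DNMT3A libraries and KO replicate 2 far above them. Mfap2, a microfibril protein gene of the matrix, was 17.3 and 8.06 FPKM in WT against 1.57 and 1.08 FPKM, and 1.69 and 1.55 FPKM in KO. Gnb1, which encodes a beta subunit of heterotrimeric G proteins, was 17.5 and 10.3 FPKM against 2.62 and 1.34 FPKM, and 2.02 and 1.78 FPKM in KO. Both genes were thus at similar levels in KO with and without Dnmt3a. Rpp25, an RNase P subunit gene, behaved alike with 6.07 and 6.87 FPKM in WT against 1.16 and 1.33 FPKM in KO+DNMT3A, with 1.56 and 0.95 FPKM in KO. The collagen gene Col8a1 was 6.40 and 6.23 FPKM in WT against 2.14 and 1.40 FPKM in KO+DNMT3A, with 12.1 and 6.52 FPKM in KO. Stard7, a lipid transfer protein gene, was 5.72 and 5.62 FPKM against 1.59 and 1.71 FPKM, and Gm16286 and the histone gene Hist2h4 also had WT libraries close to each other. Gm10260, a predicted gene whose level ran from 89.0 to 11.2 FPKM in WT, was listed at 0 in both KO+DNMT3A libraries and in KO replicate 1. It passed the filter through WT alone and had to be lower. Hist2h4 belongs to a family of near-identical copies, so its value is uncertain. In WT replicate 1 it rests on 2.0 fragments, if the longest transcript is assumed.

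**Figure D1:**
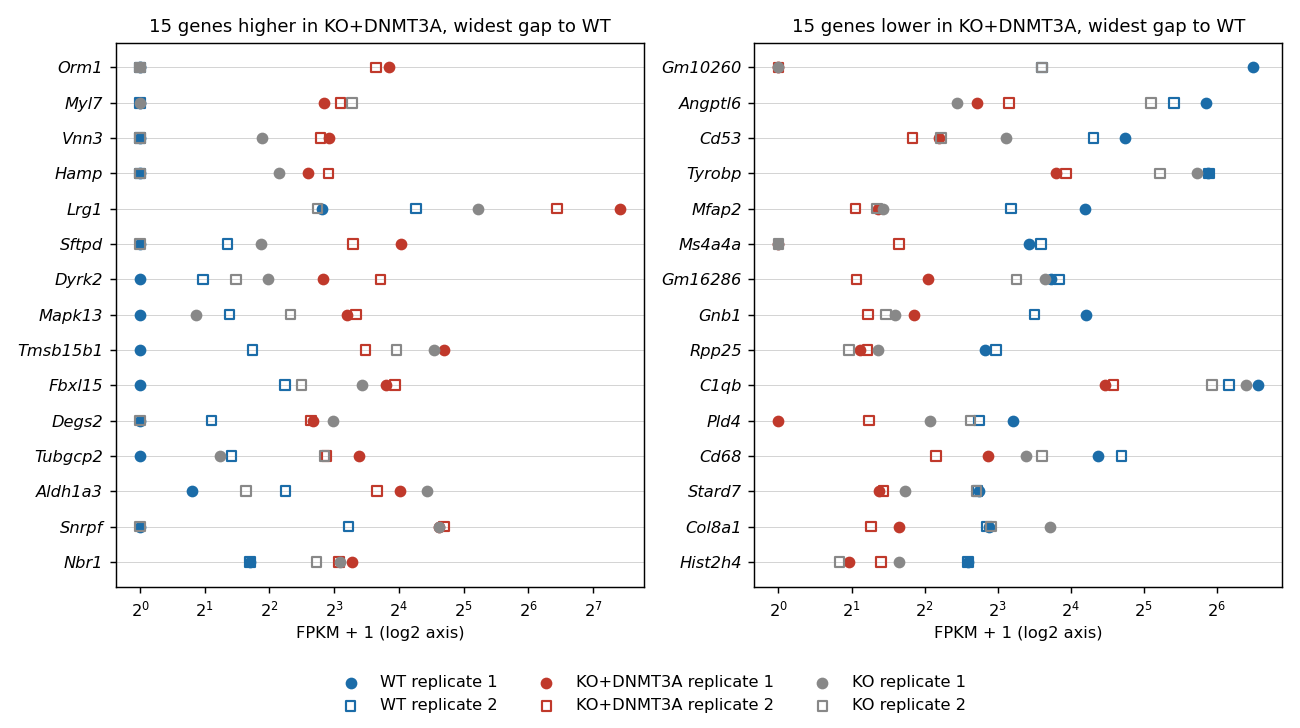
Level of the 15 higher (left) and 15 lower (right) protein-coding genes with the widest gap between the nearest KO+DNMT3A and WT libraries, as FPKM + 1 on a log2 axis. Each point is 1 library (filled circle, replicate 1; open square, replicate 2). On the left 12 of 15 genes have WT replicate 1 at 0, and on the right both WT libraries lie above both KO+DNMT3A libraries for every gene shown.

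The targeted genes did not separate the groups. Rptor was 0.80 and 1.06 FPKM under the label WT against 0.71 and 1.93 FPKM under KO+DNMT3A, a difference of 0.22 (SE 0.63), and 0.38 and 1.51 FPKM under KO. It rests on 1.29 fragments in WT replicate 1 and 9.04 in KO+DNMT3A replicate 1, if the longest transcript is assumed. At this depth its overlap between the groups says little about the deletion. Dnmt3a was 2.94 and 4.43 FPKM in WT against 3.62 and 3.80 FPKM in KO+DNMT3A, a difference of 0.03 (SE 0.55), so both KO+DNMT3A libraries lay between the WT libraries. In KO, Dnmt3a was 3.19 and 2.50 FPKM, below both KO+DNMT3A libraries. A gene-level FPKM sums all exons and all islet cells, and whether an added Dnmt3a sequence would be counted under this gene was not tested.

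Acute-phase and secreted defence genes were higher in KO+DNMT3A than in WT as a group. These genes encode plasma and mucosal proteins made under inflammatory cytokine signals. Of 29 listed, 15 were kept; 14 had a higher mean in KO+DNMT3A (64.7% of all genes did) and 10 lay above both WT libraries (66.7%, against 18.9% of all genes), with none below both. Their median difference was 1.41, against 0.22 for all genes, and 1.33 without WT replicate 1, against 0.01. Orm1 and Saa1 passed the filter through their KO+DNMT3A values alone and had to differ in this direction, and of the other 13 members 8 lay above both WT libraries (61.5%, against 16.1% of all such genes). With the 2 members listed at 0 in both WT libraries set to what 3 fragments are worth there, the median was 1.16. The summed level of the list was 144 and 157 FPKM in WT against 675 and 414 FPKM in KO+DNMT3A, with 147 and 86.0 FPKM in KO.

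The promoters of 4 members of these lists and of the NF-kB list below are shown because both KO+DNMT3A libraries exceeded both WT libraries in each, by at least 0.8 on the log2 scale, with at least 5 FPKM in all 4 libraries. They run from 250 bases before to 50 bases after the RefSeq start, in the direction of the gene, from GRCm38.p6. Lcn2 lies at chr2:32387690-32387989, Saa3 at chr7:46715627-46715926, Socs3 at chr11:117969317-117969616 and Lrg1 at chr17:56121897-56122196, all on the minus strand. Capitals mark matches to 3 motifs searched on both strands, which did not overlap in these windows: the STAT motif TTCNNNGAA, the C/EBP motif TTGCNNAA and the NF-kB motif GGGNNNNTCC.
Lcn2: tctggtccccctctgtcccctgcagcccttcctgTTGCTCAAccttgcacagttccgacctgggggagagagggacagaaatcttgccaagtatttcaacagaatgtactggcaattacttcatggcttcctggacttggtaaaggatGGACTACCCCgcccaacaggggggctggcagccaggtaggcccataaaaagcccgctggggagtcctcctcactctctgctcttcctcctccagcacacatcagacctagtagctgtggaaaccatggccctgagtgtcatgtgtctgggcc
Saa3: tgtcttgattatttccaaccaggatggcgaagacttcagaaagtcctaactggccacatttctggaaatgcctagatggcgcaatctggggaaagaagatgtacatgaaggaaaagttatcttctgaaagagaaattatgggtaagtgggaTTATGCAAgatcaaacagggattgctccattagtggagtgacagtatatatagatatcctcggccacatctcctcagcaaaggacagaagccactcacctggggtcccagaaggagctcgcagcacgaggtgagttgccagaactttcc
Socs3: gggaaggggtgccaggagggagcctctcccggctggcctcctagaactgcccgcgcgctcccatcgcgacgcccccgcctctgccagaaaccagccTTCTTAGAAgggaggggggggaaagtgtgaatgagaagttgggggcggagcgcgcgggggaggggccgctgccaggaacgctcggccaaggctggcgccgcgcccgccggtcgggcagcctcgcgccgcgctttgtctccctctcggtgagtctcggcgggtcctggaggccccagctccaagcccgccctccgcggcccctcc
Lrg1: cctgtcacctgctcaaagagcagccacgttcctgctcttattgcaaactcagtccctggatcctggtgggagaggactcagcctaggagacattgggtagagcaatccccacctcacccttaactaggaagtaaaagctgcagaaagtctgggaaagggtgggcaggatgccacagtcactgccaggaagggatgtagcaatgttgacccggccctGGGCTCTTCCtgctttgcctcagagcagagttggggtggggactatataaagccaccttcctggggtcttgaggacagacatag
Of the 18 genes of both lists that lay above both WT libraries, 14 had a RefSeq window, 17 windows in all, and windows of 1 gene can share bases. The NF-kB letters were in 10 of the 17 windows and in 19.2% of all 32851 windows. The STAT letters were in 5 of 17 and in 8.3% of all, and the C/EBP letters in 5 of 17 and in 10.8% of all. A match is a run of letters, not a measured site. Both lists were chosen for known inflammatory response, so their promoters could hold more of these letters whatever the present libraries show. Members not above both WT libraries were not counted, so these shares say nothing about the difference between the groups.

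Lrg1, a leucine-rich secreted glycoprotein of the acute phase, had the widest gap among members at 5 FPKM or more in all 4 libraries. In WT replicate 1 it rests on only 2.085 fragments, if the longest transcript is assumed. It was 6.05 and 18.2 FPKM in WT against 170 and 86.1 FPKM in KO+DNMT3A, a difference of 3.39 (SE 0.71), and 2.67 without WT replicate 1. In KO it was 36.3 and 5.69 FPKM, so KO replicate 1 lay between the groups and KO replicate 2 at the WT level. Saa3, a serum amyloid A made outside the liver, was 92.3 and 75.4 FPKM in WT against 189 and 199 FPKM in KO+DNMT3A, a difference of 1.21 (SE 0.53). It was 34.3 and 67.6 FPKM in KO, below both WT libraries. Lcn2, the iron-scavenging protein lipocalin 2, named here after its values were seen, was 20.1 and 13.5 FPKM in WT against 66.0 and 36.4 FPKM in KO+DNMT3A, with 14.5 and 1.32 FPKM in KO. In these 2 genes both KO libraries thus lay within or below the WT range while both KO+DNMT3A libraries lay above it. Cfb, complement factor B, was listed at 0 and at 14.98 FPKM in WT against 130 and 28.1 FPKM in KO+DNMT3A, with the larger value in replicate 1. Saa1 was listed at 0 in WT and KO and was 1.72 and 2.96 FPKM in KO+DNMT3A. The protease inhibitor gene Serpina3n was 3.96 and 5.97 FPKM in WT against 12.6 and 11.7 FPKM, and the immunoglobulin transporter gene Pigr 6.38 and 6.87 FPKM against 12.3 and 10.6 FPKM. Both, and the fibrinogen gene Fgb at 0 and 2.96 FPKM against 5.88 and 4.70 FPKM, were also named after their values were seen.

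Genes of NF-kB and cytokine response were higher for a smaller share of their members. NF-kB is a transcription factor family released by inflammatory receptors, and several of its targets encode its own inhibitors and partners. Of 22 listed, 19 were kept, 13 with a higher mean; 8 lay above both WT libraries (42.1%, against 18.9% of all genes) and 1 below both (5.26%, against 8.11% of all genes). The median was 0.46, and 0.51 without WT replicate 1. Socs3, the feedback inhibitor of STAT3 signalling, was 6.21 and 8.12 FPKM in WT against 21.1 and 20.1 FPKM in KO+DNMT3A (difference 1.41, SE 0.53). Nfkbiz, the nuclear coactivator IκBζ, was 3.42 and 5.73 FPKM against 14.97 and 13.6 FPKM (difference 1.49, SE 0.54). For both genes KO replicate 1, at 16.2 and 8.22 FPKM, was above WT, and KO replicate 2, at 4.68 and 4.65 FPKM, was not. Birc3, a ubiquitin ligase of the TNF receptor complex, was 2.97 and 3.28 FPKM against 6.72 and 11.3 FPKM, and Bcl3, an atypical IκB protein, 3.37 and 9.61 FPKM against 15.3 and 28.6 FPKM. The NF-kB subunit gene Nfkb2 was 7.24 and 7.59 FPKM against 14.2 and 12.2 FPKM, and the adhesion molecule gene Icam1 4.83 and 7.68 FPKM against 11.5 and 11.3 FPKM. The member below both WT libraries was Ccl2, a monocyte-attracting chemokine gene, at 30.0 and 15.1 FPKM in WT against 4.09 and 10.8 FPKM in KO+DNMT3A.

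Marker levels of other cell types also differed between these libraries. The summed level of 18 duct cell genes reached 2966 FPKM in replicate 1 of WT and 1843 FPKM in replicate 1 of KO+DNMT3A, but 534 and 495 FPKM in WT replicate 2 and KO+DNMT3A replicate 2. The summed level of macrophage genes was 723 and 583 FPKM in WT against 317 and 194 FPKM in KO+DNMT3A. The part of either cell type in the acute-phase and NF-kB values was not tested.

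**Figure D2:**
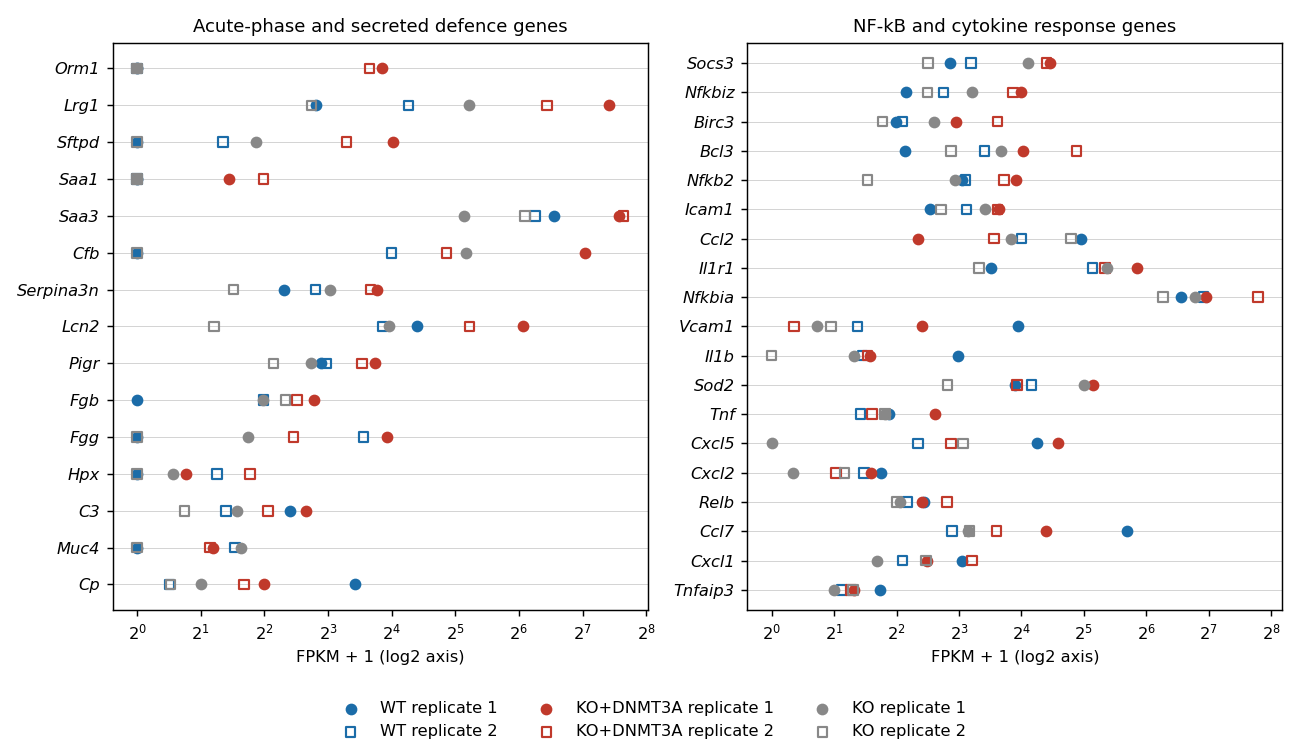
Level of the kept acute-phase and secreted defence genes (left, 15) and NF-kB and cytokine response genes (right, 19) as FPKM + 1 on a log2 axis, 1 point a library. For 10 genes on the left and 8 on the right, both KO+DNMT3A points lie to the right of both WT points.

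Macrophage genes were lower in KO+DNMT3A in nearly all members. All 16 kept of 20 listed had a lower mean (35.3% of all genes did), 13 lay below both WT libraries (81.2%, against 8.11% of all genes), and the median was -1.25, or -0.74 without WT replicate 1. Among these 13, 1 passed the filter through WT alone and had to be lower. Their summed level was 723 and 583 FPKM in WT against 317 and 194 FPKM in KO+DNMT3A, with 597 and 380 FPKM in KO. In bulk islets fewer cells of a type and less RNA per cell cannot be told apart. Tyrobp, the signalling adaptor DAP12 of myeloid receptors (ENSMUSG00000030579, chromosome 7, 30413760 to 30417585), was 58.0 and 58.3 FPKM in WT against 12.9 and 14.3 FPKM in KO+DNMT3A, a difference of -2.02 (SE 0.53). In KO it was 52.2 and 36.4 FPKM, above both KO+DNMT3A libraries and below both WT libraries. C1qb, a chain of complement C1q, was 93.9 and 70.8 FPKM in WT against 21.1 and 23.03 FPKM in KO+DNMT3A, with 83.2 and 60.1 FPKM in KO. Its partner chain gene C1qc was 26.6 and 10.04 FPKM in WT against 3.88 and 4.58 FPKM in KO+DNMT3A, with 19.25 and 10.14 FPKM in KO. The gene of the remaining chain, C1qa, overlapped between the groups, with 55.0 and 77.0 FPKM against 63.1 and 46.5 FPKM.

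Cd68, a glycoprotein of macrophage lysosomes, was 19.8 and 24.8 FPKM in WT against 6.30 and 3.46 FPKM in KO+DNMT3A (difference -2.02, SE 0.56). In KO it was 9.50 and 11.2 FPKM, so both KO libraries also lay below both WT libraries. Lysozyme, Lyz2, was 239 and 234 FPKM against 105 and 50.2 FPKM, with 169 and 154 FPKM in KO. The protease gene Ctss was 25.0 and 25.1 FPKM against 12.2 and 11.4 FPKM, with 37.1 and 12.1 FPKM in KO. Myeloid genes outside this list were also among the widest gaps of all. Cd53, a leukocyte tetraspanin gene, was 25.8 and 18.9 FPKM against 3.59 and 2.57 FPKM. In KO it was 7.65 and 3.68 FPKM, again below both WT libraries. Ms4a4a, a macrophage membrane protein gene, was 9.77 and 11.1 FPKM against 0 and 2.14 FPKM, and was listed at 0 in KO. In WT replicate 1 it rests on 2.0 fragments, if the longest transcript is assumed. Pld4, an endolysosomal nuclease gene, was 8.26 and 5.71 FPKM against 0 and 1.36 FPKM, with 3.19 and 5.18 FPKM in KO. Beside C1qa, 2 members overlapped: Cd14, at 85.8 and 9.15 FPKM against 36.8 and 3.42 FPKM, and Adgre1, the F4/80 antigen gene, at 9.05 and 0.85 FPKM against 2.45 and 0.74 FPKM. These 3 were named after their values were seen. Both Cd14 and Adgre1 were highest in WT replicate 1, and without it their differences were 0.35 and 0.40, above 0. Of 15 lymphocyte genes none was kept, and their summed level was under 1 FPKM in each library.

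Genes of DNA replication and mitosis were also lower, at low levels. Of 32 listed, 22 were kept, 17 with a lower mean; 10 lay below both WT libraries (45.5%, against 8.11% of all genes) and 1 above both. Of these 10, 6 were under 1 FPKM in both KO+DNMT3A libraries, passed the filter through WT alone and so had to be lower. Of the other 16 members, 4 lay below both WT libraries (25.0%, against 7.57% of all such genes). The median was -0.33, -0.56 without WT replicate 1, and -0.83 with quantile normalization. It was -0.75 without KO+DNMT3A replicate 1 and -0.16 without replicate 2 of that group. Mki67, the proliferation antigen Ki-67, was 2.03 and 2.75 FPKM in WT against 0.31 and 0.44 FPKM in KO+DNMT3A, a difference of -1.29 (SE 0.60). In KO it was 0.28 and 1.91 FPKM, so both KO libraries lay below both WT libraries and KO replicate 2 above both KO+DNMT3A libraries. Rrm2, a subunit of ribonucleotide reductase, was 5.49 and 3.04 FPKM against 0.70 and 0.48 FPKM, and the replication helicase gene Mcm3 1.83 and 2.60 FPKM against 0.31 and 0.40 FPKM. Few fragments stand behind these values: Mki67 rests on 4.99 fragments in WT replicate 1 and 5.99 in KO+DNMT3A replicate 1, if the longest transcript is assumed. Top2a, the DNA topoisomerase of dividing cells, was 1.52 and 3.16 FPKM against 0.49 and 0.25 FPKM, and Cenpa, the centromeric histone, 1.26 and 1.17 FPKM against 0.48 and 0.09 FPKM. Pcna, the replication clamp, was 9.31 and 10.5 FPKM against 6.53 and 3.57 FPKM. The member above both WT libraries, named after its values were seen, was Ccnd1, the G1 cyclin D1, at 18.4 and 33.7 FPKM against 39.3 and 39.3 FPKM. Which islet cells these transcripts came from was not tested, and macrophage genes were lower in the same libraries.

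**Figure D3:**
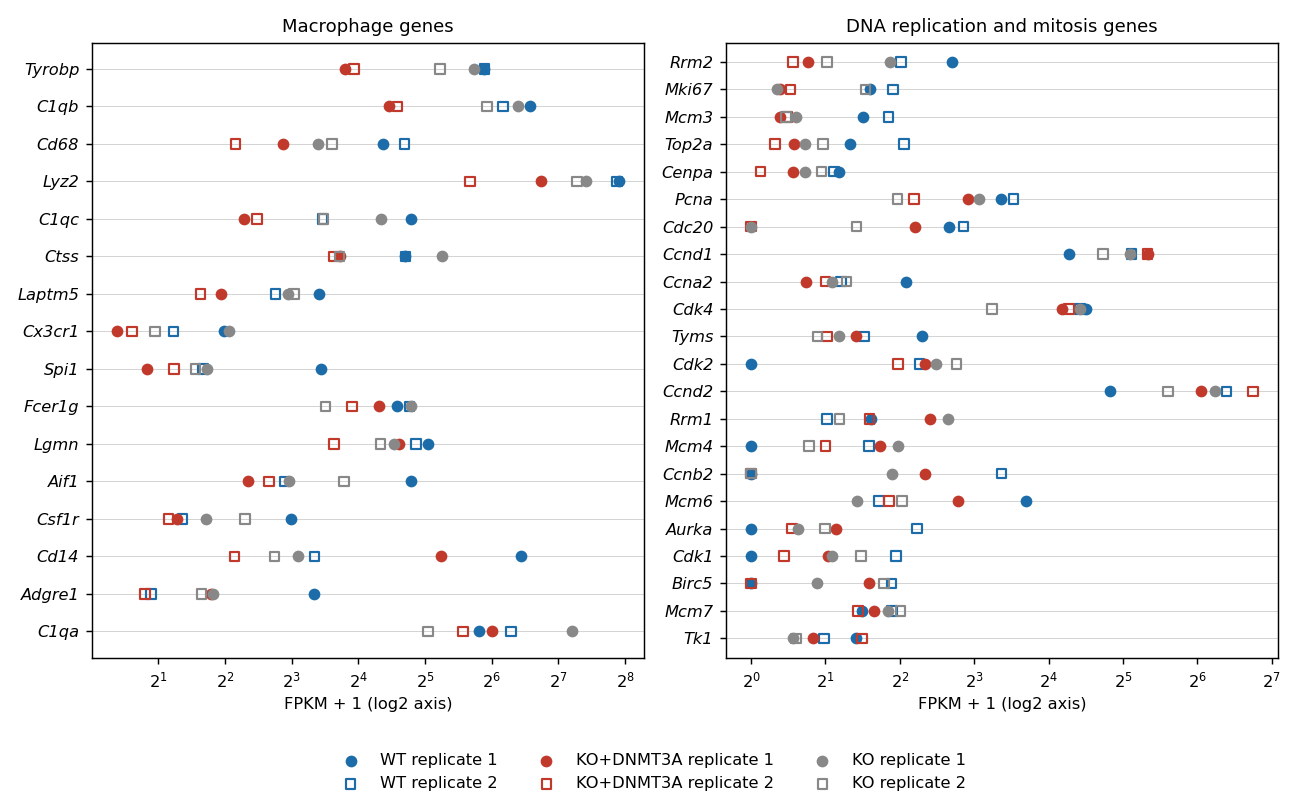
Level of the kept macrophage genes (left, 16) and DNA replication and mitosis genes (right, 22) as FPKM + 1 on a log2 axis, 1 point a library. Both KO+DNMT3A points lie to the left of both WT points for 13 genes on the left and 10 on the right.

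The mature beta cell genes could not be read from the group means. Of 31 kept, 30 had a higher mean in KO+DNMT3A, with a median of 1.09, but without WT replicate 1 the median was -0.21. Ins1, an insulin gene, was 647 and 100800 FPKM in WT against 65360 and 100100 FPKM in KO+DNMT3A. Iapp, the amylin gene, was 512 and 33610 FPKM against 39510 and 22490 FPKM. Both KO+DNMT3A libraries lay near WT replicate 2 for these hormones, while WT replicate 1 lay far below. Against WT replicate 2 alone, 5 beta cell genes were above it in both KO+DNMT3A libraries and 13 below it in both. Ucn3, the urocortin 3 gene and a maturity marker, was 5.53 and 337 FPKM in WT against 189 and 119 FPKM in KO+DNMT3A. The glucose transporter gene Slc2a2 was listed at 0 and at 20.8 FPKM in WT, against 6.72 and 8.03 FPKM. Mafa, a transcription factor of mature beta cells, was listed at 0 and at 2.85 FPKM, against 0.96 and 2.49 FPKM. For these 3 genes the KO+DNMT3A values thus lay between the WT libraries.

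Of the beta cell genes, 5 lay above both WT libraries (16.1%, against 18.9% of all genes), among them Neurod1, Chgb, Kcnj11 and Ptprn2. Neurod1, a transcription factor of islet endocrine cells, was 47.9 and 123 FPKM in WT against 205 and 179 FPKM in KO+DNMT3A. Chgb, the granule protein chromogranin B, was 71.6 and 1208 FPKM against 4083 and 1556 FPKM. Kcnj11, the pore of the ATP-sensitive potassium channel, was 6.97 and 6.13 FPKM against 12.4 and 8.39 FPKM, with the WT libraries close together. Nnat, the imprinted gene of neuronatin, was below both WT libraries, at 10.2 and 4.005 FPKM against 3.05 and 3.37 FPKM.

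Hormone genes of the other islet cells were higher in KO+DNMT3A than in both WT libraries for 6 of 15 members (40.0%, against 18.9% of all genes), and below both for none. Their median was 0.52, and 0.29 without WT replicate 1. Somatostatin, Sst, the delta cell hormone, was 443 and 2560 FPKM in WT against 4036 and 10850 FPKM in KO+DNMT3A, with 4873 and 2736 FPKM in KO (difference 2.63, SE 0.94, and 1.37 without WT replicate 1). Ppy, pancreatic polypeptide, was 1178 and 6511 FPKM against 9269 and 14440 FPKM, and its relative Pyy 511 and 1553 FPKM against 2223 and 4196 FPKM. In all 3 genes WT replicate 1 was the lowest library and KO+DNMT3A replicate 2 was above replicate 1. Rbp4, the retinol carrier protein, was 15.8 and 31.7 FPKM against 67.9 and 89.0 FPKM, and 47.0 and 59.3 FPKM in KO, so all 4 libraries labelled βRapKO lay above both WT libraries. Gcg, glucagon, was 1245 and 1197 FPKM against 1932 and 1592 FPKM, a difference of 0.52 (SE 0.52) that was -0.09 after quantile normalization. The prohormone convertase gene Pcsk2 was 39.8 and 345 FPKM against 361 and 356 FPKM.

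**Figure D4:**
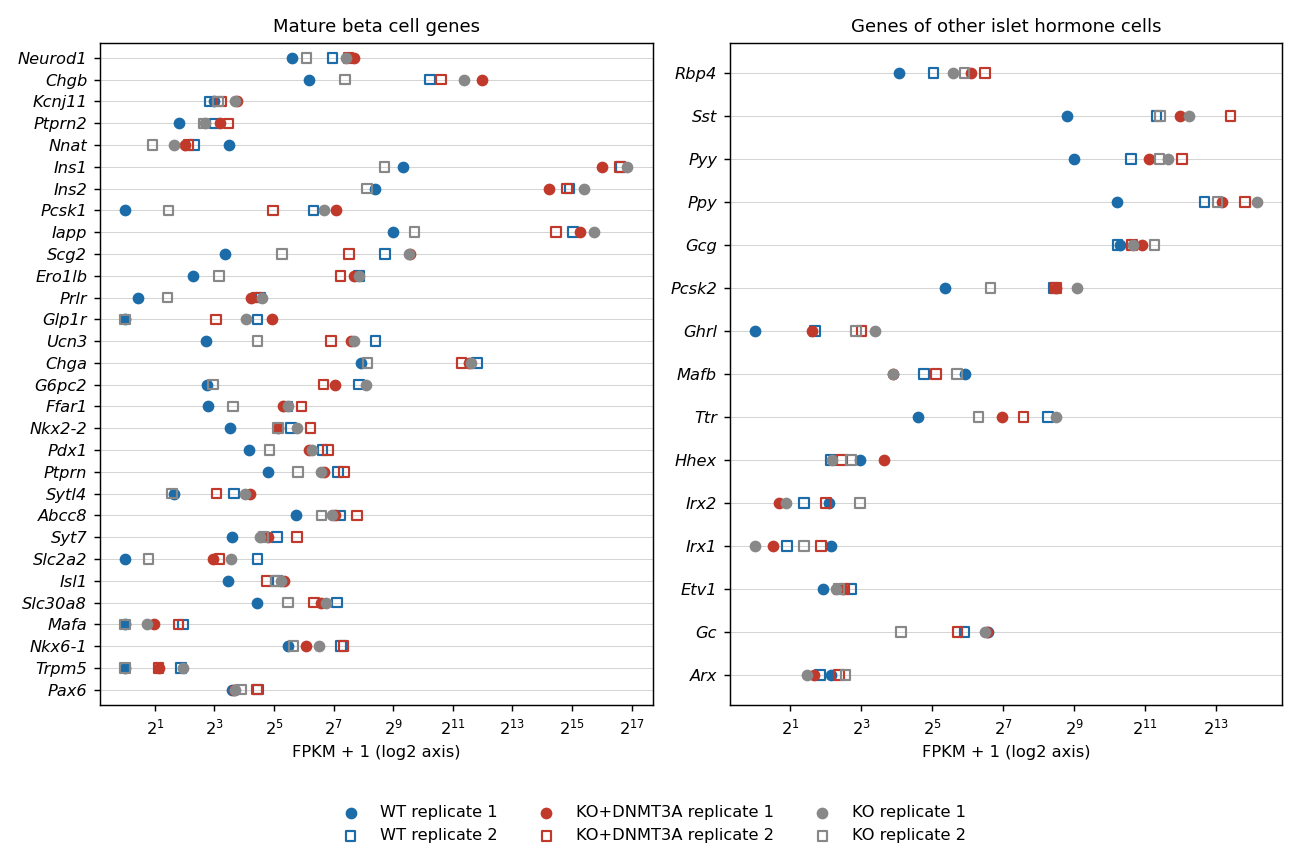
Level of 30 of the 31 kept mature beta cell genes (left) and genes of other islet hormone cells (right, 15) as FPKM + 1 on a log2 axis, 1 point a library. On the left WT replicate 1 is the lowest of the 4 WT and KO+DNMT3A libraries for most genes, and on the right both KO+DNMT3A points lie to the right of both WT points for 6 genes.

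Genes repressed in mature beta cells, which adult beta cells keep off and many other cells use, had a lower mean in 20 of 24 members, with a median of -0.33. Without WT replicate 1 the median was 0.21. The 2 below both WT libraries (8.33%, against 8.11% of all genes) were Fcgrt and Oat. Fcgrt, the neonatal IgG receptor, was 25.9 and 15.4 FPKM against 8.69 and 3.09 FPKM. Oat, ornithine aminotransferase, was 24.6 and 10.5 FPKM against 7.49 and 4.98 FPKM. Ldha, lactate dehydrogenase A, overlapped, at 45.4 and 18.1 FPKM against 20.8 and 4.29 FPKM. The mitochondrial enzyme gene Tst was above both WT libraries, at 5.70 and 4.08 FPKM against 0 and 1.87 FPKM. These levels cover all islet cells.

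The duct list itself did not separate the groups: 2 of 17 kept members lay above both WT libraries (11.8%, against 18.9% of all genes) and none below. Krt19, the duct keratin, was 64.8 and 4.40 FPKM in WT against 94.6 and 2.30 FPKM in KO+DNMT3A. Mmp7, a duct metalloproteinase, was 639 and 4.81 FPKM against 87.3 and 3.35 FPKM. In both genes replicate 1 of each group was high and replicate 2 low. Among those above both WT libraries was Muc1, a mucin of epithelial surfaces, at 0 and 0.76 FPKM against 18.2 and 3.33 FPKM, which passed the filter through KO+DNMT3A alone.

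Stellate cell and fibroblast genes had a lower mean in 22 of 25 members, with a median of -0.88 that was -0.08 without WT replicate 1. Mgp, matrix Gla protein, was 64.4 and 75.6 FPKM in WT against 40.7 and 41.0 FPKM in KO+DNMT3A, with 123 and 166 FPKM in KO, so the KO+DNMT3A libraries were the lowest of the 6. Fn1, fibronectin, was 13.1 and 9.20 FPKM against 6.22 and 3.07 FPKM, and 10.4 and 17.4 FPKM in KO. The proteoglycan gene Lum was 63.0 and 12.9 FPKM against 9.29 and 3.02 FPKM, and the collagen gene Col6a1 87.5 and 23.4 FPKM against 18.9 and 13.2 FPKM. In these last 2 genes WT replicate 1 held most of the difference. Postn, periostin of activated fibroblasts, overlapped, at 59.1 and 12.7 FPKM against 13.8 and 1.55 FPKM. Of 11 endothelial genes, 3 lay below both WT libraries (27.3%, against 8.11% of all genes). Their median was -0.36, or 0.11 without WT replicate 1.

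Cytosolic ribosomal protein genes had a lower mean in 60 of 76 members, with 22 below both WT libraries (28.9%, against 8.11% of all genes) and none above. The median was -0.32, against 0.22 for all genes, and -0.34 without WT replicate 1. Without KO+DNMT3A replicate 1 it was -0.02, against 0.217 for all genes, so the shift was smaller without that library. Rps2 was 38.1 and 22.4 FPKM in WT against 10.5 and 11.3 FPKM in KO+DNMT3A, with 10.2 and 17.5 FPKM in KO. Rps14 was 155 and 140 FPKM against 91.6 and 86.7 FPKM. Rpl41 was 109 and 123 FPKM against 35.8 and 72.3 FPKM. The summed level was 6940 and 6403 FPKM in WT against 3812 and 6306 FPKM in KO+DNMT3A, with 3998 and 7332 FPKM in KO. By this sum KO+DNMT3A replicate 2 lay only just below both WT libraries, and replicate 1 far below them. Many of these genes have processed pseudogenes with which reads could be shared, so their levels are uncertain. Translation factor genes were below both WT libraries for 7 of 34 members (20.6%, against 8.11% of all genes) and above for 2 (5.88%, against 18.9%). Eif4e, the cap-binding factor released when mTORC1 is active, was 4.69 and 4.86 FPKM against 2.91 and 2.57 FPKM, a difference of -0.63 (SE 0.54). The initiation factor gene Eif3d was 40.6 and 57.5 FPKM against 31.9 and 32.8 FPKM, and Eif3c 67.2 and 60.7 FPKM against 48.2 and 43.2 FPKM.

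Genes of the mTOR complexes and their regulators were near the background. Of 33 members, 4 lay above both WT libraries (12.1%, against 18.9% of all genes) and 2 below both (6.06%, against 8.11%). The median of 0.19 was -0.15 after quantile normalization and -0.13 without WT replicate 1. Deptor, an inhibitor of mTOR, was 6.53 and 11.7 FPKM in WT against 15.95 and 15.96 FPKM in KO+DNMT3A. Rps6kb1, the kinase S6K1 activated by mTORC1, was 7.92 and 6.73 FPKM against 5.24 and 3.80 FPKM. Rictor, the defining subunit of mTORC2, was 1.75 and 7.83 FPKM against 8.84 and 9.32 FPKM, and Mlst8, shared by both complexes, was listed at 0 and at 4.08 FPKM against 5.61 and 6.6 FPKM. In glycolysis 3 of 23 genes lay above and 3 below both WT libraries (13.0% each, against 18.9% and 8.11% of all genes). Among those below, the lactate dehydrogenase gene Ldhb was 10.4 and 14.1 FPKM against 6.62 and 8.64 FPKM, and the triosephosphate isomerase gene Tpi1 36.2 and 66.8 FPKM against 34.9 and 17.7 FPKM.

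The DNA methylation list, which holds the methyltransferases, the TET demethylases and their readers, had 4 of 13 members above both WT libraries (30.8%, against 18.9% of all genes) and none below. Of these 4, Tdg and Zbtb33 were under 1 FPKM in both WT libraries, passed the filter through KO+DNMT3A alone and had to be higher. Without them the count was 2 of 11 (18.2%, against 16.1% of all such genes), near the background. The list's median was 0.36, 0.40 without WT replicate 1 and 0.01 after quantile normalization. Dnmt1, the maintenance methyltransferase, was 4.48 and 4.02 FPKM in WT against 5.39 and 6.45 FPKM in KO+DNMT3A, a difference of 0.39 (SE 0.53). Tdg, a glycosylase of active demethylation, was 0.83 and 0.94 FPKM against 2.01 and 1.27 FPKM, and the methyl-CpG reader gene Zbtb33 0.83 and 0.84 FPKM against 1.01 and 1.92 FPKM. The difference of Zbtb33, 0.40, was -0.001 after quantile normalization. Gadd45b, a stress gene linked to demethylation, was 12.9 and 8.92 FPKM against 17.3 and 23.3 FPKM. Of 28 Polycomb genes, which encode the complexes that set repressive histone marks, 9 lay above both WT libraries (32.1%, against 18.9% of all genes) and 1 below both (3.57%, against 8.11%). Their median was 0.42, and 0.21 without WT replicate 1. Rbbp7, a histone-binding subunit, was 14.1 and 21.3 FPKM against 35.0 and 32.1 FPKM, and Ezh1, a histone methyltransferase, 2.20 and 2.49 FPKM against 3.27 and 5.22 FPKM. The ring finger subunit genes Pcgf1, Pcgf3 and Pcgf5 also lay above both, with KO+DNMT3A values from 1.51 to 5.39 FPKM. Cbx8, a chromodomain subunit of PRC1, was the member below both, at 1.71 and 2.36 FPKM against 0.87 and 0.56 FPKM, and passed the filter through WT alone.

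Most stress genes overlapped between the groups. Of 27 ATF4 targets and tRNA synthetase genes, 3 lay below both WT libraries (11.1%, against 8.11% of all genes) and 1 above (3.7%, against 18.9%). Ddit3, the stress transcription factor CHOP, was 72.8 and 91.0 FPKM in WT against 17.9 and 31.5 FPKM in KO+DNMT3A (difference -1.73, SE 0.57). In KO it was 18.3 and 114 FPKM, so KO replicate 1 lay between the KO+DNMT3A libraries and KO replicate 2 above both WT libraries. Trib3, a pseudokinase induced by CHOP, was 15.5 and 14.6 FPKM against 8.71 and 2.82 FPKM, and Eprs 13.0 and 14.6 FPKM against 9.82 and 9.75 FPKM. Of 18 cytosolic heat shock genes, 3 lay below both WT libraries (16.7%, against 8.11% of all genes) and none above (0.0%, against 18.9%). Their median was -0.08, against 0.22 for all genes. Hspa1b, the inducible HSP70, was 14.6 and 4.76 FPKM in WT against 0.37 and 0.32 FPKM in KO+DNMT3A, with 0.50 and 21.5 FPKM in KO, and passed the filter through WT alone. Of the other 17 members, 2 lay below both WT libraries (11.8%, against 7.57% of all such genes). Mature beta cell genes held 0.368% of the summed FPKM in WT replicate 1 and 0.397% in KO replicate 2, and these 2 libraries, like WT replicate 2, lay above both KO+DNMT3A libraries in Ddit3 and Hspa1b. The part of this composition in the differences was not tested. Hspa1b has a near-identical neighbour, Hspa1a, so its value is uncertain. Hspa1a overlapped between the groups, at 1.38 and 6.23 FPKM in WT against 2.46 and 0.90 FPKM in KO+DNMT3A. The mitochondrial chaperonin gene Hspe1 was 32.9 and 28.4 FPKM against 24.6 and 23.2 FPKM.

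Interferon-stimulated genes lay above both WT libraries for 9 of 24 members (37.5%, against 18.9% of all genes) and below both for 3 (12.5%, against 8.11%), with a median of 0.38, or 0.03 without WT replicate 1. Usp18, the negative regulator of the interferon receptor, was 2.37 and 3.58 FPKM in WT against 6.34 and 7.79 FPKM in KO+DNMT3A, with 9.97 and 4.09 FPKM in KO. Irf9, a subunit of the interferon transcription factor, Ddx58, the RNA sensor RIG-I, and Irgm1, an interferon-induced GTPase, were each listed at 0 in WT replicate 1 and were 1.67 to 5.35 FPKM in KO+DNMT3A. In the opposite direction, Bst2, tetherin, was 26.7 and 32.3 FPKM against 17.0 and 12.9 FPKM, and Rsad2, viperin, 1.69 and 1.49 FPKM against 0.86 and 0.92 FPKM. Rsad2 passed the filter through WT alone. The list thus did not move one way.

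**Figure D5:**
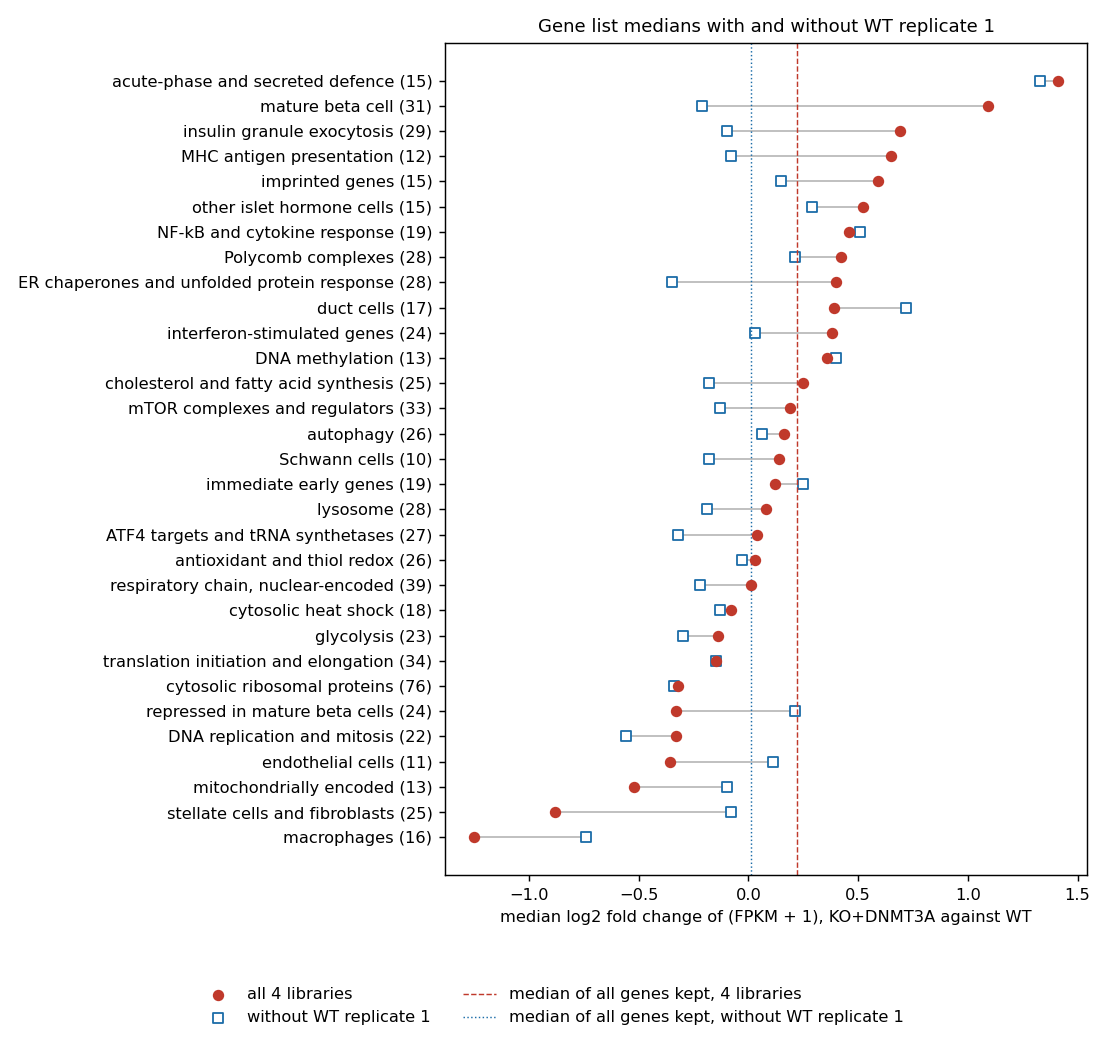
Median log2 difference of FPKM + 1, KO+DNMT3A against WT, of each of 31 gene lists with kept members other than acinar cells (number kept in brackets), with all 4 libraries (filled circles) and without WT replicate 1 (open squares). Acute-phase genes stay at the right end (1.41 and 1.33) and macrophage genes at the left (-1.25 and -0.74), while the beta cell list goes from 1.09 to -0.21.

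All 13 mitochondrially encoded genes had a lower mean, and 6 lay below both WT libraries (46.2%, against 8.11% of all genes) and none above. Their median was -0.52, or -0.10 without WT replicate 1, the library in which they held the largest share of the 4. Of the other lists, several turned with WT replicate 1. Medians with and without that library were 0.69 and -0.10 for insulin granule exocytosis, 0.65 and -0.08 for MHC antigen presentation, 0.40 and -0.35 for ER chaperones, and 0.25 and -0.18 for cholesterol and fatty acid synthesis. Imprinted genes were 0.59 and 0.15, autophagy genes 0.16 and 0.06, lysosomal genes 0.08 and -0.19, and nuclear-encoded respiratory chain genes 0.01 and -0.22. Acinar genes were near absent: 4 of 22 were kept, and their sum was at most 26.2 FPKM in any of the 6 libraries.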

How the data were processed

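Poly-A RNA of isolated islets was sequenced, per the labels' protocols. The authors deposited gene-level FPKM, as the column headers say. The submitters' processing notes name mm10, edgeR, StringTie 1.3.0 and HISAT2 2.0.4, without the role of each. No column was left out. Symbols, types and positions came from GENCODE M21 (GRCm38). Depth was inferred from genes with 1 transcript, where 84.7% to 91.8% of the values of at most 20 fragments were whole, within 0.01 of a fragment. It covers counting error only.

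Genes at 1 FPKM or more in at least 2 of the 4 libraries were kept, and log2(FPKM + 1) was fitted with limma 3.58.1 (R 4.3.3; trended, robust empirical Bayes; two-sided; Benjamini-Hochberg adjustment over 12317 genes). The fit was tested on simulated data. Python 3.11.15, numpy 2.4.6, pandas 2.3.3 and matplotlib 3.10.9 made tables and figures. Promoter windows are RefSeq's.

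Named genes are Rptor, Dnmt3a, the 15 protein-coding genes per direction with the widest gap and at least 5 FPKM in both libraries of the higher group, up to 6 members per list described, first those not overlapping, by gap and then by size of the difference, and Ins1, Ins2, Iapp, Gcg, Sst, Ppy, Mafa, Ucn3, Slc2a2, Mki67, Cd68 and Krt19. Exceptions are marked. Of these, 2 list members are not reported here, though they count in their lists. The comparison, members and lists were chosen with earlier results of these data known. The alternatives comprised filters of 5 FPKM, over all 6 libraries and none, a pseudocount of 0.1, quantile normalization, median scaling, no trend, all 6 libraries in the fit, a replicate block and leaving out each library.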

Additional observations from a re-analysis of the deposited data

How the results depend on the processing

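The limma count of genes past the threshold stayed at 0 under every alternative except leaving out WT replicate 2, where it was 1025. That fit sets a lone WT library, the insulin-poor replicate 1, against KO+DNMT3A and assumes that it varies like the KO+DNMT3A libraries. The same holds for each fit that leaves out a library. Leaving out each library gave a range of 0 to 1025 for this count. For genes not overlapping it gave 3563 to 6455 higher and 2386 to 3061 lower, and for gaps of at least 1 it gave 352 to 2979 higher and 130 to 593 lower, where 1 library less makes separation easier. Genes not overlapping were 915 higher and 472 lower with a filter of 5 FPKM, 1625 lower with quantile normalization and 1531 lower with median scaling. Gaps of at least 1 numbered 374 higher and 109 lower with a pseudocount of 0.1, 40 higher and 27 lower with a filter of 5 FPKM, 82 higher with quantile normalization and 149 higher with median scaling. The samples of a replicate number share only that number: the deviations of same-numbered libraries correlated at 0.113 over 12317 genes. With a replicate block the limma count was 0, the smallest adjusted p 0.794, and 546 genes had an unadjusted p under 0.05.

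The median of 13 of 31 lists and the difference of 119 of 132 named genes kept their sign under all alternatives, with values read to 2 decimals, so that Zbtb33, at -0.001 with quantile normalization, counts as kept. Acute-phase, NF-kB, macrophage, replication and ribosomal protein lists were among them. Lists that changed sign when a library was left out had these ranges of medians, and the cause was not tested: mature beta cell -0.21 to 2.21, repressed in mature beta cells -0.88 to 0.21, duct -0.44 to 1.18, endothelial -1.07 to 0.11, Schwann -0.18 to 0.46, mTOR -0.13 to 0.30, ATF4 targets -0.32 to 0.47, cholesterol -0.18 to 0.58, glycolysis -0.44 to 0.46, ER chaperones -0.35 to 1.07, MHC -0.08 to 1.46, antioxidant -0.18 to 0.25, heat shock -0.35 to 0.11, lysosome -0.46 to 0.66, respiratory chain -0.27 to 0.23 and exocytosis -0.10 to 1.67. Quantile normalization turned the medians of the Schwann (-0.20), mTOR (-0.15), ATF4 (-0.13), cholesterol (-0.05), antioxidant (-0.08), immediate early (-0.04), lysosome (-0.03) and respiratory chain (-0.12) lists. Median scaling turned Schwann (-0.05), ATF4 (-0.16), antioxidant (-0.16), immediate early (-0.07), lysosome (-0.11), autophagy (-0.03) and respiratory chain (-0.19), and the filter of 5 FPKM turned Schwann (-1.08), antioxidant (-0.03) and respiratory chain (-0.05). Named genes that changed sign when a library was left out ranged from -0.17 to 0.61 for Rptor, -0.21 to 0.26 for Dnmt3a, -0.32 to 6.96 for Ins1, -0.39 to 6.15 for Ins2, -0.17 to 5.86 for Iapp, -1.16 to 4.53 for Ucn3, -1.38 to 3.06 for Slc2a2, -0.56 to 1.39 for Mafa, -2.51 to 2.34 for Krt19, -5.03 to 1.75 for Mmp7, -2.75 to 0.35 for Cd14 and -2.03 to 0.40 for Adgre1. Quantile normalization gave -0.15 for Rptor, -0.19 for Dnmt3a, -0.15 for Mafa and -0.09 for Gcg, and median scaling -0.16 for Dnmt3a. Hspa1a was not counted among the 132, and its difference of -0.69 was 0.11 without WT replicate 2.

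Depth limits genes under about 3 fragments in a library, most of all in WT replicate 1, where 2835 of the 12317 genes kept were listed at 0. With 2 libraries a group, spread is estimated poorly, and the groups cannot be told apart from other differences between these islet preparations.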

Other observations

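Some single genes of lists not described above differed between libraries and were chosen after their values were seen. Txnip, which encodes the thioredoxin-binding protein induced by glucose, was 1.77 and 1.04 FPKM in WT against 21.8 and 3.88 FPKM in KO+DNMT3A, with 10.6 and 2.04 FPKM in KO. Thioredoxin reductase, Txnrd1, was 19.1 and 29.7 FPKM in WT against 48.3 and 52.4 FPKM in KO+DNMT3A, with 39.0 and 40.9 FPKM in KO, so all 4 libraries labelled βRapKO lay above both WT libraries. Heme oxygenase, Hmox1, was 25.1 and 20.8 FPKM in WT against 13.0 and 5.17 FPKM in KO+DNMT3A, with 8.36 and 8.33 FPKM in KO, so all 4 lay below both WT libraries. None passed the limma test.

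The immediate early gene Fos was 5.39 and 2.71 FPKM in WT against 14.8 and 11.8 FPKM in KO+DNMT3A. Mest, an imprinted gene expressed from the paternal copy, was listed at 0 and at 1.45 FPKM in WT against 3.60 and 5.44 FPKM in KO+DNMT3A. Sox10, the glial lineage regulator of Schwann cells, was listed at 0 and at 0.76 FPKM in WT, against 3.65 and 2.97 FPKM. The elastase gene Cela1 of acinar cells had a listed value of 0 in each WT library and was 4.72 and 4.06 FPKM in KO+DNMT3A, with 5.72 and 10.4 FPKM in KO. Sox10 and Cela1 passed the filter through KO+DNMT3A alone and had to be higher there. Pecam1, the endothelial adhesion molecule CD31, was 4.10 and 2.29 FPKM in WT against 1.39 and 1.40 FPKM in KO+DNMT3A. None of these passed the limma test either.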
